A study of Mus musculus with 2 samples.

Results

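The genes described here are 6 costimulatory receptors of T cells, chosen by name from the 32285 genes of the count matrices: Tnfrsf4 (OX40), Tnfrsf9 (4-1BB), Tnfrsf18 (GITR), Cd27, Icos and Cd28. All 6 were found in the matrices and all 6 passed the filter on low counts. They were followed over 6 classes of tumour T cells that were set by transcripts of other genes, so that no receptor count decided where a cell was placed.

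Costimulatory receptors add to the signal that a T cell receives through its antigen receptor. OX40, 4-1BB, GITR and CD27 belong to the tumour necrosis factor (TNF) receptor superfamily: their ligands sit mostly on antigen-presenting cells, and their tails recruit TRAF adaptor proteins that feed NF-kappaB and survival signals. ICOS and CD28 belong to the immunoglobulin superfamily, bind B7-family ligands and act through kinases such as PI3K. CD28 and CD27 are already present on resting T cells, whereas OX40, 4-1BB and ICOS are induced after activation, and regulatory T cells (Treg) are known for GITR and OX40.

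The cells came from tumours of MB49, a transplantable mouse bladder carcinoma line, on day 14 in female and male C57BL/6J mice aged 12 to 14 weeks. There was 1 droplet library per sex, made with a kit that reads the 5′ ends of transcripts, and 10000 to 20000 cells were loaded. No treatment or engineered allele is given for either group, and the number of mice per library is not given in the sources used here. The labels describe sorted viable CD4+ T cells.

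Transcripts were counted by unique molecular identifiers (UMIs), and levels are given as CPM, the UMIs of a gene scaled to a total of 1000000 UMIs for a class in a library. The female value stands before the male one throughout. Treg were cells with at least 1 Foxp3 UMI and no Cd8a or Cd8b1 UMI, 233 female and 345 male. Other Cd4 cells had at least 1 Cd4 UMI and no Foxp3, Cd8a or Cd8b1 UMI, 248 female and 231 male. Cd8 cells had at least 2 UMIs of Cd8a and Cd8b1 together and no Foxp3 UMI, and were split by at least 1 UMI of Pdcd1 (PD-1) and Havcr2 (TIM-3), a pair of inhibitory receptors that mark chronically stimulated T cells. The split gave 1156 female and 809 male cells with both genes (Pdcd1+Havcr2+), 572 and 486 with Pdcd1 only, 115 and 121 with Havcr2 only, and 402 and 524 with neither. Classes were compared in 1 edgeR fit over the 12 sums of class and library, with a library term and p-values adjusted over 10598 genes, so each class had n = 2 libraries that also differed in sex. The p-values measure only the spread between these libraries, and a gene was called at an adjusted p below 0.05.

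The female library held 3658 barcodes and 55880364 UMIs, and the male library 3708 barcodes and 50946624 UMIs, with 16 barcodes in both. After filtering, 3468 female and 3519 male cells remained, of which the 6 classes held 78.6% and 71.5%. Cd8 cells were 64.7% of kept female and 55.1% of kept male cells, which goes against a sort of CD4+ cells. A further 396 female and 491 male barcodes held both Foxp3 and Cd8 UMIs, with median depths of 33232 and 33093 UMIs, and entered no class at full depth. They carried between 27.2% and 52.0% of each receptor's UMIs. All 4 T cell markers were detected in every class, and their sum lay between 2375 and 3760 CPM. The Treg markers Foxp3, Il2ra and Ikzf2 summed to 2014 and 2234 CPM in Treg and to between 61.2 and 218 CPM in the other classes. Foxp3 defined the Treg class and was absent from the others by rule, so part of this gap was fixed in advance. Epithelial markers reached 652 CPM in female Treg, 51.0% of it in 1 barcode and with Krt7 at 0, and macrophage markers reached 160 CPM there, 97.5% of it in 1 barcode. Neutrophil markers reached 160 CPM in male other Cd4 cells, all of it in 1 barcode and with Csf3r at 0, and epithelial markers 199 CPM in female Pdcd1-only Cd8 cells, 74.8% of it in 1 barcode. B cell, natural killer, fibroblast, mast cell and endothelial markers summed to at most 71.1 CPM in any class, and the dendritic list to between 83.6 and 1078 CPM, mostly of Ccr7, which T cells express too. An alternative fit left out barcodes with no T cell marker UMI or with at least 2 UMIs of other cell types. These UMIs were counted over Lyz2, C1qa, C1qb, Csf1r, Cd79a, Krt8, Krt18 and Col1a1, with no neutrophil gene. That fit changed 3 receptor calls, each named with its result.

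Tnfrsf4 (ENSMUSG00000029075) and Tnfrsf18 lie on the same strand of chromosome 4, at chr4:156013843-156016612 and chr4:156026164-156028895 of GRCm38, with 9551 bases and 2 genes between them. Tnfrsf9 lies elsewhere on that chromosome, at chr4:150914562-150946102. Cd27 is at chr6:125232622-125237010. Cd28 at chr1:60716800-60773359 and Icos at chr1:60977927-61000320 flank Ctla4, which codes for the inhibitory receptor that shares the ligands of CD28. Tnfrsf9, Tnfrsf18 and Cd27 overlap genes on the opposite strand (Camta1, Gm16008 and Vamp1), and Icos overlaps Gm37039. How the counting treated strand is not given in the sources used here, and whether reads of these neighbours entered the receptor counts was not tested.

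Promoter windows of 300 bases, 250 before and 50 after the transcript start, were taken from RefSeq on GRCm38.p6 for 4 of the 6 receptors. The windows of Tnfrsf4 and Tnfrsf18 are printed because these neighbours followed each other most closely over the 12 sums, and the window of the second Tnfrsf9 start because it holds motif matches of factors that act below T cell activation. Capitals mark matches to an NFAT core (TGGAAA), an NF-kappaB motif (GGG and TTTCC with any 2 bases between) or an AP-1 motif (TGANTCA) on either strand. A forkhead motif (GTAAACA) was searched as well. All are printed on the plus strand, which is the strand of the 3 genes.
Tnfrsf4 at chr4:156013445-156013744: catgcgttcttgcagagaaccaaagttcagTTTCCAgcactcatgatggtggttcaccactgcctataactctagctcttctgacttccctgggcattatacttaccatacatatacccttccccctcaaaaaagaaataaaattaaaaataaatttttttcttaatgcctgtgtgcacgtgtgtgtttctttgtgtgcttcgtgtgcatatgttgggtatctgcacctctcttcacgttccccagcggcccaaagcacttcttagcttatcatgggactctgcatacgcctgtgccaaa
Tnfrsf18 at chr4:156026072-156026371: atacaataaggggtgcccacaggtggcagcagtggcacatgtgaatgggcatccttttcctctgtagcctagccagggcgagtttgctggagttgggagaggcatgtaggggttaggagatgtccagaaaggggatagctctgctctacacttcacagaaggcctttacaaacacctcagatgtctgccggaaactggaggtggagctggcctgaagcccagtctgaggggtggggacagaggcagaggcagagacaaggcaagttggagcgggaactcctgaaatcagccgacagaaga
Tnfrsf9, second start, at chr4:150927749-150928048: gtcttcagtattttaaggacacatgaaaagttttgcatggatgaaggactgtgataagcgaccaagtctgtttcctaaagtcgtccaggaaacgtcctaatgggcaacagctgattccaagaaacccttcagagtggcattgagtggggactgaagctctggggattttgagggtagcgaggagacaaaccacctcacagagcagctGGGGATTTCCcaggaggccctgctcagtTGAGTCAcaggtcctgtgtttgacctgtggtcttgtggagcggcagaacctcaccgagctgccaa
The Tnfrsf4 window held 1 NFAT match, 220 to 215 bases before the start, and the Tnfrsf18 window held no match. The second Tnfrsf9 window held the NF-kappaB match 43 to 34 bases and the AP-1 match 15 to 9 bases before the start, and the first Tnfrsf9 window held 1 NFAT match. No letters of these motifs were found in the Cd27 window. Among 32851 RefSeq windows of the same length, 21.4% held the NFAT core, 1.63% the NF-kappaB motif, 7.81% the AP-1 motif and 3.65% the forkhead motif. A match describes the letters only and is no evidence of binding.

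Treg carried more of 5 receptors than other Cd4 cells did, between 2.26-fold for Icos and 4.73-fold for Tnfrsf9, while Cd28 was slightly lower. Of the 6 receptors, 5 were called higher in Treg and 1 lower, where 10.9% of all tested genes were called higher and 10.8% lower. The median log2 fold change was 1.42 over the receptors and -0.0016 over all tested genes. The plot of levels by class shows the Treg sums above all other sums for every receptor but Cd28.

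**Figure D1:**
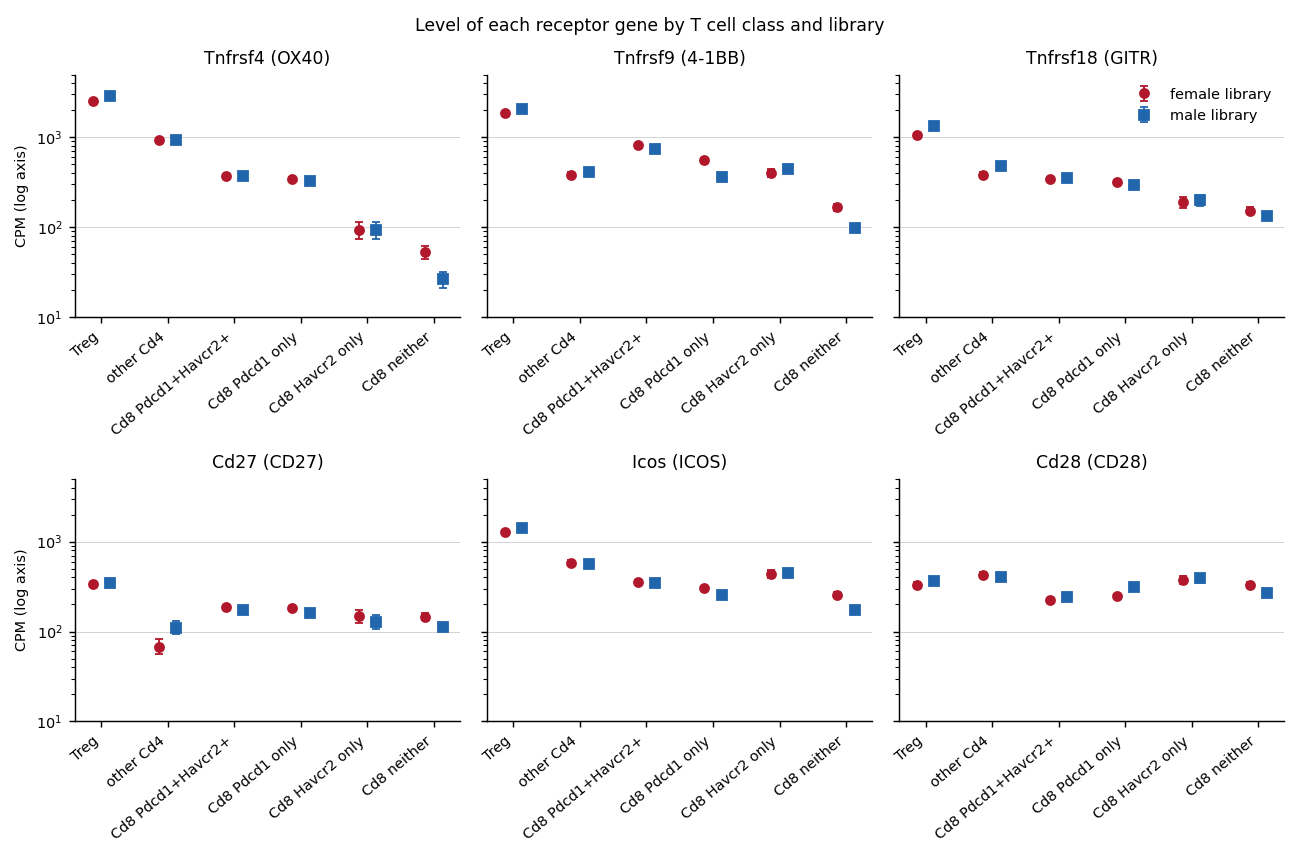
Level of each receptor (CPM, log axis) in the 6 classes, with 1 point per library (red circles female, blue squares male) and bars for exact 95% Poisson intervals of counting error. Tnfrsf4, Tnfrsf9, Tnfrsf18, Cd27 and Icos were highest in both Treg sums, and Cd28 was highest in both sums of other Cd4 cells.

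Tnfrsf4, the receptor for OX40 ligand, stood at 2516.5 and 2859 CPM in Treg, against 927 and 933 CPM in other Cd4 cells. The groups did not overlap, and the log2 fold change was 1.45 ± 0.15 (SE, n = 2 libraries per class, edgeR adjusted p = 3.5e-05). Tnfrsf9, whose product is the activation-induced receptor for 4-1BB ligand, had 1871 and 2071 CPM in Treg, against 378 and 409 CPM in other Cd4 cells. This was the largest difference among the receptors, at a log2 of 2.24 ± 0.19 (SE, edgeR adjusted p = 7.2e-06), and 12.5% of the female UMIs in other Cd4 cells came from 1 cell. Tnfrsf18, coding for GITR, had 1067 and 1325 CPM in Treg, against 381 and 476 CPM in other Cd4 cells, a log2 difference of 1.39 ± 0.12 (SE, edgeR adjusted p = 6.8e-06).

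Cd27, the receptor for CD70, had 334 and 343 CPM in Treg, against 68.1 and 110.3 CPM in other Cd4 cells. The log2 fold change of Cd27 was 1.85 ± 0.18 (SE, edgeR adjusted p = 2e-05), and other Cd4 cells were its lowest class. Icos, the receptor for ICOS ligand, had 1282 and 1433 CPM in Treg, against 579 and 557 CPM in other Cd4 cells, a log2 fold change of 1.17 ± 0.13 (SE, edgeR adjusted p = 4.1e-05). Cd28, the receptor for CD80 and CD86, had 327 and 365 CPM in Treg, against 427 and 409 CPM in other Cd4 cells. Its log2 fold change of -0.36 ± 0.12 (SE, edgeR adjusted p = 0.046) was lost in 5 of 8 alternatives, among them the fit without barcodes carrying UMIs of other cell types (-0.29, adjusted p = 0.0613).

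Genes that share ligands, adaptors or pathways with these receptors moved in both directions between Treg and other Cd4 cells. The counts by list are read beside the 10.9% of all tested genes called higher and 10.8% called lower. Ctla4, the inhibitory counterpart of Cd28, had 1552 and 1660 CPM in Treg, against 296 and 446 CPM in other Cd4 cells, a log2 fold change of 2.03 ± 0.19 (SE). Among 9 tested TNF receptors outside the 6, 3 were higher and 2 lower, including Tnfrsf8 (CD30, log2 4.60 ± 0.53) and Tnfrsf13b (TACI, 2.19 ± 0.26) among the higher and Tnfrsf25 (DR3, -1.20 ± 0.23) among the lower. Of 10 TRAF adaptors and regulators, 3 were higher and 3 lower. Traf3 was higher (0.85 ± 0.12), and Tnfaip3, which codes for the NF-kappaB inhibitor A20, was lower (-0.95 ± 0.11). Of 8 NF-kappaB genes, 2 were higher and 1 lower, with a list median of 0.18.

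Of 5 survival genes, 4 were lower in Treg and 1 was higher, where 10.8% of all tested genes were called lower and 10.9% higher. Bcl2 had 3.49 and 5.32 CPM in Treg, against 55.5 and 79.1 CPM in other Cd4 cells, whereas Bcl2l1, coding for the survival factor Bcl-xL, was higher (log2 0.67 ± 0.15). Of 11 genes of CD28 and ICOS signalling, 2 were higher and 6 lower. Maf, a transcription factor linked to ICOS in T cells, was higher (1.56 ± 0.19), while the kinase Prkcq (-1.23 ± 0.12) and the adaptor Grap2 (-1.10 ± 0.10) were lower. Of 10 other costimulatory receptors, 2 were higher, with Cd2 at 0.94 ± 0.10, and 1 was lower, Cd226 at -1.75 ± 0.22.

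**Figure D2:**
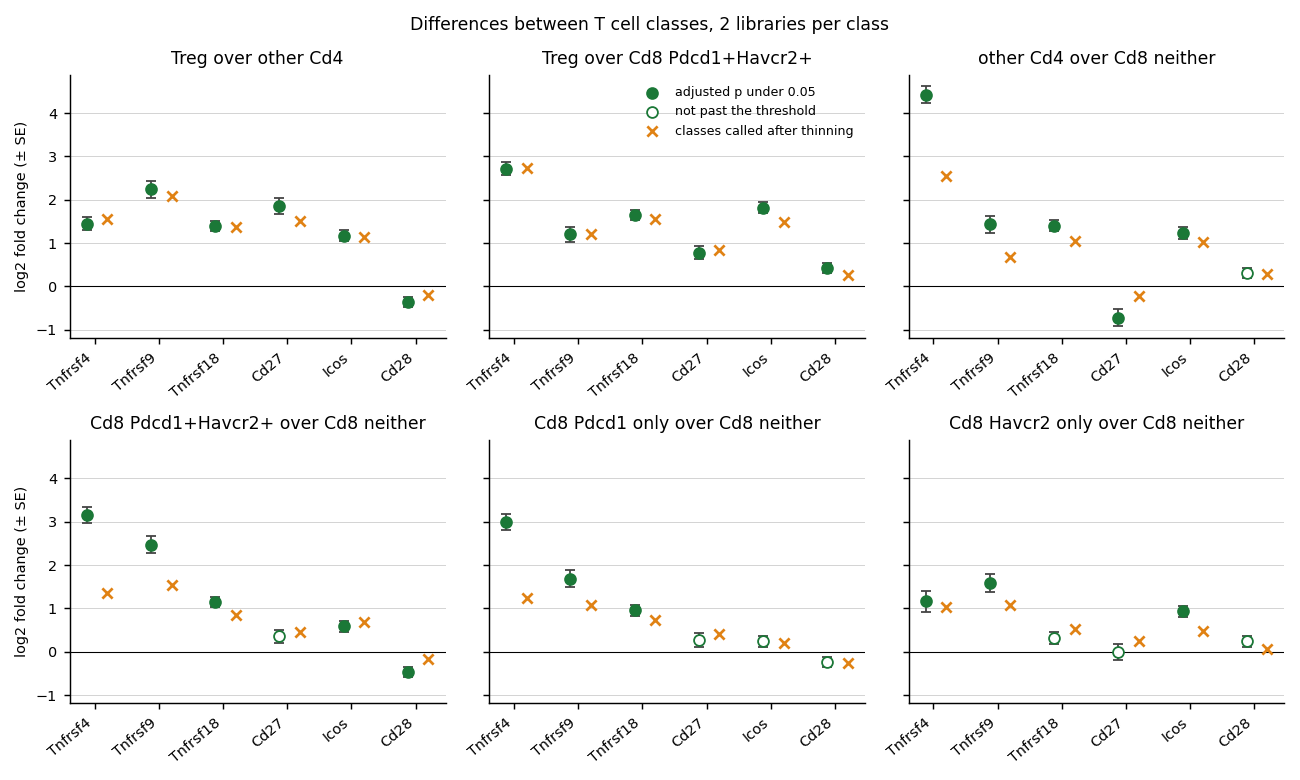
Log2 fold change of each receptor in 6 class comparisons, with the first-named class over the second and bars for ± SE of the edgeR fit. Filled green points were called at an adjusted p below 0.05, open points were not, and orange crosses give the values when classes were called after every cell was thinned to 3000 UMIs. Tnfrsf4 ran from 1.16 to 4.42 and was called in all 6 comparisons, and its crosses lie lower in the 3 comparisons with the largest values.

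Compared with Pdcd1+Havcr2+ Cd8 cells, Treg had more of all 6 receptors, from 1.34-fold for Cd28 to 6.58-fold for Tnfrsf4. All 6 were called higher and 0 lower, where 20% of tested genes were called higher and 19.4% lower, so that this comparison separates the classes at many genes. The median log2 fold change was 1.42 over the receptors and -0.011 over all tested genes. The 2 libraries of Treg and the 2 of Pdcd1+Havcr2+ Cd8 cells did not overlap for any of the 6 receptors.

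Pdcd1+Havcr2+ Cd8 cells had 373 CPM of Tnfrsf4 in each library, and the log2 fold change of Treg over them was 2.72 ± 0.16 (SE, edgeR adjusted p = 6.6e-08). Tnfrsf9 was closer between the classes, at 826 and 748 CPM in Pdcd1+Havcr2+ Cd8 cells and a log2 fold change of 1.20 ± 0.18 (SE, edgeR adjusted p = 0.0002). These Cd8 cells were the class with the second-highest Tnfrsf9 level, above other Cd4 cells, whereas other Cd4 cells came second for Tnfrsf4. Tnfrsf18 had 340 and 355 CPM in Pdcd1+Havcr2+ Cd8 cells, with a log2 fold change in Treg of 1.65 ± 0.11 (SE, edgeR adjusted p = 3.3e-07). Icos had 360.1 and 345 CPM there, with a log2 fold change in Treg of 1.82 ± 0.12 (SE, edgeR adjusted p = 2.8e-07).

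Cd27 had 188 and 173 CPM in Pdcd1+Havcr2+ Cd8 cells, and Treg were higher by a log2 of 0.78 ± 0.15 (SE, edgeR adjusted p = 0.0014). Cd28 had 227 and 244 CPM there, its lowest class, and Treg were higher by a log2 of 0.42 ± 0.11 (SE, edgeR adjusted p = 0.0099). The Cd28 call was lost in cells of 2000 to 20000 UMIs (0.22, adjusted p = 0.136) and when classes were called after thinning every cell to 3000 UMIs (0.27, adjusted p = 0.0668). Median depth was 6426 and 5993 UMIs in Treg, against 14925 and 14375 in Pdcd1+Havcr2+ Cd8 cells, and the part of depth in the Cd28 difference was tested only through these alternatives.

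All 8 NF-kappaB genes were higher in Treg than in Pdcd1+Havcr2+ Cd8 cells, with a list median of 0.87 on the log2 scale. Among them, Bcl3 had 203 and 224 CPM in Treg, against 59.4 and 52.8 CPM in the Cd8 cells, and Nfkbia, which codes for the NF-kappaB inhibitor induced by that pathway, had 1583 and 1814 CPM, against 503 and 622 CPM. Of 10 TRAF adaptors and regulators, 6 were higher and 1 lower, including Traf3 (log2 1.36 ± 0.11) and Traf1 (1.35 ± 0.15). Of 9 other TNF receptors, 6 were higher and 0 lower, led by Tnfrsf13b (4.20 ± 0.22). Of 11 genes of CD28 and ICOS signalling, 2 were higher and 5 lower, and Maf (4.60 ± 0.20) and Pik3cd (-1.01 ± 0.11), a PI3K subunit, moved in opposite directions.

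Within Cd8 cells, OX40, 4-1BB and GITR transcripts were higher where Pdcd1 and Havcr2 were both detected. Against Cd8 cells with neither gene, 4 of the 6 receptors were called higher and 1 lower, where 19.8% of tested genes were called higher and 21.0% lower. The receptors' median log2 fold change was 0.87, beside -0.015 over all tested genes. Cells with both genes were also deeper, at medians of 14925 and 14375 UMIs, against 6437.5 and 6323 UMIs in cells with neither. Class calls after thinning to 3000 UMIs removed this difference in depth, and moved cells between the classes. Then 524 female and 403 male cells counted as Pdcd1+Havcr2+ and 595 and 630 as having neither. All kept barcodes of at least 3000 UMIs were called anew, those with both Foxp3 and Cd8 UMIs at full depth among them. Such a barcode could enter a class where thinning removed its Foxp3 or its Cd8 UMIs, and how many did was not counted. At full depth these barcodes had 942 and 923 CPM of Tnfrsf4.

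Tnfrsf4 stood at 373 CPM in each library of Pdcd1+Havcr2+ Cd8 cells, against 52.8 and 26.2 CPM in Cd8 cells with neither gene. In cells with neither gene it rested on 148 and 93 UMIs, of which 32.4% and 14.0% were in 1 cell. The log2 fold change was 3.15 ± 0.19 (SE, edgeR adjusted p = 1.6e-07), 2.82 in the female library alone and 3.83 in the male one alone, and 1.35 with classes called after thinning. Tnfrsf9 had 826 and 748 CPM, against 167 and 97.5 CPM, a log2 fold change of 2.47 ± 0.20 (SE, edgeR adjusted p = 1.6e-06) and of 1.54 after thinning. Both stayed called in all 8 alternatives that had a test, with the size depending on how cells were assigned.

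Tnfrsf18 had 340 and 355 CPM in Pdcd1+Havcr2+ Cd8 cells, against 153 and 135 CPM in Cd8 cells with neither gene (log2 1.15 ± 0.12, SE, edgeR adjusted p = 1.4e-05). Icos had 360.1 and 345 CPM, against 258 and 175 CPM (0.59 ± 0.13, SE, edgeR adjusted p = 0.0024). Cd28 was lower in Pdcd1+Havcr2+ Cd8 cells, at 227 and 244 CPM, against 332 and 267 CPM (-0.47 ± 0.11, SE, edgeR adjusted p = 0.0048). Neither pair of libraries overlapped for these 3 genes, but the Cd28 call was lost in cells of 2000 to 20000 UMIs (-0.13, adjusted p = 0.381) and after thinning (-0.18, adjusted p = 0.276). Cd27 had 188 and 173 CPM, against 147 and 113 CPM, and was not called (0.35 ± 0.16, SE, edgeR adjusted p = 0.091). It was called higher in 4 of 8 alternatives, with a log2 of up to 0.62, one of them the fit without barcodes carrying UMIs of other cell types (0.37, adjusted p = 0.0326).

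Where only Pdcd1 was detected, the same 3 TNF receptors were called higher than in Cd8 cells with neither gene, 3 of 6 higher and 0 lower, where 10.8% of tested genes were higher and 11.0% lower. Tnfrsf4 had 348 and 324 CPM in Pdcd1-only cells (log2 2.99 ± 0.19, SE, edgeR adjusted p = 2e-06), with 2.72 from the female library alone, 3.63 from the male and 1.24 after thinning. Tnfrsf9 had 564 and 363 CPM (1.69 ± 0.20, SE, edgeR adjusted p = 0.00012), with 1.08 after thinning. Tnfrsf18 had 318 and 291 CPM (0.95 ± 0.12, SE, edgeR adjusted p = 0.00023). All 3 levels lay below those of Pdcd1+Havcr2+ cells and above those of cells with neither gene in each library.

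The other 3 receptors were not called in Pdcd1-only cells. Cd27 had 183 and 159.5 CPM (log2 0.27 ± 0.16, edgeR adjusted p = 0.26), Icos 303 and 254 CPM (0.24 ± 0.13, edgeR adjusted p = 0.2) and Cd28 249.6 and 310.5 CPM (-0.23 ± 0.11, edgeR adjusted p = 0.17). Each was called under 1 or 2 of the 8 alternatives, Cd28 with stricter class thresholds (-0.50, adjusted p = 0.0069). For Icos and Cd28 the libraries of Pdcd1-only cells overlapped those of cells with neither gene.

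Where only Havcr2 was detected, Icos took the place of Tnfrsf18 among the called receptors. Of the 6, 3 were called higher and 0 lower than in Cd8 cells with neither gene, where 2.99% of tested genes were higher and 3.30% lower. Tnfrsf9 had 403 and 441 CPM in Havcr2-only cells (log2 1.59 ± 0.21, SE, edgeR adjusted p = 0.00098). Icos had 434 and 446 CPM (0.93 ± 0.14, SE, edgeR adjusted p = 0.0017), its highest level among the Cd8 classes. Tnfrsf4 had 92.8 and 92.9 CPM, on 90 and 89 UMIs of which 34.4% and 28.1% came from 1 cell (1.16 ± 0.23, SE, edgeR adjusted p = 0.011). Its log2 fold change was 0.82 from the female library alone, 1.83 from the male, and 1.87 with stricter class thresholds. Tnfrsf18 had 189 and 200.5 CPM (0.33 ± 0.14, edgeR adjusted p = 0.2, called in 2 of 8 alternatives), Cd28 372 and 389 CPM (0.24 ± 0.12, edgeR adjusted p = 0.3) and Cd27 149 and 128 CPM (-0.01 ± 0.19, edgeR adjusted p = 0.99). The Cd27 estimate changed sign in 4 alternatives, none of which called it.

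Cells with Pdcd1 only and cells with Havcr2 only differed from each other in 4 receptors, in a comparison added after the levels were seen. Tnfrsf4 (log2 1.83 ± 0.20, SE, edgeR adjusted p = 0.00042) and Tnfrsf18 (0.63 ± 0.13, SE, edgeR adjusted p = 0.022) were higher with Pdcd1 only, and Icos (-0.69 ± 0.13, SE, edgeR adjusted p = 0.015) and Cd28 (-0.47 ± 0.12, SE, edgeR adjusted p = 0.05 as rounded) were lower. That is 2 of 6 in each direction, where 1.42% of tested genes were called higher and 2.49% lower. The values after thinning were 0.22 for Tnfrsf4 (adjusted p = 0.681), 0.19 for Tnfrsf18 (0.698), -0.28 for Icos (0.506) and -0.32 for Cd28 (0.443), so that edgeR called 0 of 6 receptors there, with 2 at an unadjusted p below 0.05. Stricter class thresholds gave 1.03 for Tnfrsf4, and DESeq2 called 4 receptors at full depth. Tnfrsf9 (0.09 ± 0.19, edgeR adjusted p = 0.85) and Cd27 (0.28 ± 0.18, edgeR adjusted p = 0.45) were not called. Class calls after thinning gave 155 female and 148 male Havcr2-only cells and 885 and 636 Pdcd1-only cells.

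Ligand genes were detected at low levels in Cd8 cells, as well as in Treg and other Cd4 cells. Of 6 tested ligand genes, 4 were higher in Pdcd1+Havcr2+ cells than in cells with neither gene and 0 lower. Of all tested genes, 19.8% were called higher and 21.0% lower there. Tnfsf4, which codes for OX40 ligand, had 10.3 and 15.9 CPM, against 1.07 and 1.41 CPM (log2 3.21 ± 0.46, SE), and in Pdcd1-only cells it had 24.7 and 15.6 CPM. Cd70, coding for the CD27 ligand, had 4.23 and 5.38 CPM in Pdcd1+Havcr2+ cells and 8.98 and 13.3 CPM in Pdcd1-only cells. It had 0 UMIs in Cd8 cells with neither gene in each library, which allows up to 1.07 CPM (female) and 0.846 CPM (male). Cd80 was also higher in Pdcd1+Havcr2+ cells (2.04 ± 0.28). Of the 6, 2 were higher in Treg than in Pdcd1+Havcr2+ cells and 1 lower, beside 20% and 19.4% of all tested genes. Cd80 (35.9 and 26.6 CPM in Treg) and Tnfsf9, coding for 4-1BB ligand (40.4 and 43.8 CPM), were higher, and Tnfsf4 (0.998 and 1.64 CPM) was lower. Other Cd4 cells had 44.8 and 44.3 CPM of Tnfsf9, 10.1 and 10.2 CPM of Tnfsf4, and 3.78 and 6.53 CPM of Cd80. Tnfsf18, coding for GITR ligand, had 1 UMI in all 12 sums and was not tested.

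The signalling lists are read beside the 19.8% of tested genes called higher and 21.0% called lower in Pdcd1+Havcr2+ Cd8 cells over cells with neither gene. In this comparison 1 of 10 TRAF adaptors and regulators was higher and 5 were lower, and 0 of 8 NF-kappaB genes were higher and 2 lower, Nfkbia (log2 -0.64 ± 0.09) and Rela (-0.45 ± 0.11). Of 9 other TNF receptors, 0 were higher and 4 lower, including Fas, the death receptor, at 19.9 and 22.7 CPM, against 51.3 and 53.3 CPM. Of 11 genes of CD28 and ICOS signalling, 1 was higher, Akt1 (0.69 ± 0.10), and 7 were lower, including Prkcq (-0.64 ± 0.09) and Grap2 (-1.24 ± 0.09). Ctla4 was higher, at 381 and 436 CPM, against 184 and 121 CPM (1.30 ± 0.18). Of 5 survival genes, 2 were higher and 2 lower, Bcl2a1d (1.33 ± 0.20) among the higher and Bcl2 (-1.85 ± 0.14) among the lower.

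Among the receptors, OX40 differed most between other Cd4 cells and Cd8 cells with neither gene. Of the 6 receptors, 4 were called higher and 1 lower, where 6.44% of tested genes were higher and 6.35% lower, and the receptors' median log2 fold change was 1.32, beside -0.020 over all tested genes. Tnfrsf4, at 927 and 933 CPM in other Cd4 cells, against 52.8 and 26.2 CPM, had the largest value, 4.42 ± 0.19 (SE, edgeR adjusted p = 4.4e-08). It was 4.14 from the female library alone, 5.15 from the male and 2.54 after thinning. Tnfrsf18 (1.40 ± 0.13, SE, edgeR adjusted p = 2e-05) and Icos (1.23 ± 0.13, SE, edgeR adjusted p = 6.6e-05) were higher too. Tnfrsf9 was higher by 1.43 ± 0.20 (SE, edgeR adjusted p = 0.00065), with 1.18 from the female library alone, 2.07 from the male and 0.68 after thinning.

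Cd27 was the receptor that other Cd4 cells had less of, at 68.1 and 110.3 CPM, against 147 and 113 CPM in Cd8 cells with neither gene (log2 -0.72 ± 0.19, SE, edgeR adjusted p = 0.025). The difference was carried by the female library (-1.11), with -0.04 in the male one, and was not called after thinning (-0.21, adjusted p = 0.429). Cd28 had 427 and 409 CPM, against 332 and 267 CPM, and was not called (0.31 ± 0.12, edgeR adjusted p = 0.11), except without barcodes carrying UMIs of other cell types (0.34, adjusted p = 0.0375). Of 8 NF-kappaB genes, 6 were higher in other Cd4 cells and 0 lower, led by Nfkb1 at 420 and 374 CPM, against 169 and 143 CPM. Among 10 TRAF adaptors and regulators, 5 were higher and 0 lower, beside 6.44% and 6.35% of all tested genes.

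The order of classes differed by receptor. Tnfrsf4 and Tnfrsf18 decreased in the order Treg, other Cd4, Pdcd1+Havcr2+, Pdcd1-only, Havcr2-only and neither, with no overlap between neighbours. Tnfrsf9 was followed after Treg by Pdcd1+Havcr2+ Cd8 cells, and the Pdcd1-only, Havcr2-only and other Cd4 sums overlapped each other in turn. For Cd27, Pdcd1+Havcr2+ overlapped Pdcd1-only cells, and Havcr2-only cells overlapped those with neither gene. For Icos, Pdcd1-only cells overlapped those with neither gene, and for Cd28, Treg, cells with neither gene and Pdcd1-only cells overlapped in turn.

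The share of cells with at least 1 UMI of a receptor gave a similar picture after every cell was thinned to 3000 UMIs, with shallower cells left out (between 7 and 53 per class and library). Tnfrsf4 was detected in 95.5% and 96.3% of Treg, 52.0% and 65.7% of other Cd4 cells, 48.8% and 49.2% of Pdcd1+Havcr2+, 36.4% and 30.5% of Pdcd1-only and 10.3% and 12.6% of Havcr2-only Cd8 cells, and 4.19% and 4.06% of Cd8 cells with neither gene. Without thinning the shares were 97.0% and 96.8% in Treg, 61.3% and 71.9% in other Cd4 cells, 73.6% and 73.8% in Pdcd1+Havcr2+ cells and 6.97% and 9.73% in Cd8 cells with neither gene. Nearly all Treg thus held a Tnfrsf4 UMI at this depth, and few Cd8 cells did so without a Pdcd1 or Havcr2 UMI.

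Tnfrsf9 was detected after thinning in 86.3% and 91.0% of Treg (exact 95% intervals 81.0% to 90.6% and 87.2% to 93.9%) and in 79.8% and 76.0% of Pdcd1+Havcr2+ Cd8 cells (77.4% to 82.1% and 72.9% to 79.0%), against 91.8% and 93.9%, and 94.4% and 91.5%, without thinning. In Cd8 cells with neither gene it was detected in 21.6% and 13.6% after thinning and in 34.3% and 23.3% without. Barcodes with at least 10 Krt8 and Krt18 UMIs and no T cell UMI, 29 female and 22 male, were set beside the T cell classes. They showed Tnfrsf9 in 17.0% and 17.4% after thinning and in 65.5% and 54.5% without, at median depths of 52964 and 41917 UMIs. The thinned Tnfrsf9 share of Cd8 cells with neither gene thus lay near theirs, while its level was higher, at 167 and 97.5 CPM, against 41.6 and 54.7 CPM in the keratin-high barcodes. The keratin-high barcodes held 59 and 54 UMIs of Tnfrsf9 but 1 of Tnfrsf4 in each library and 0 of the other 4 receptors, whereas all kept cells held 44766 and 37962 UMIs of Tnfrsf9 and 33003 and 34164 of Tnfrsf4. The source of the Tnfrsf9 UMIs in keratin-high barcodes was not tested, so their share is no measure of background. Intervals cover counting error only, also for the ratios between libraries given further on.

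Icos and Tnfrsf18 were also detected in most Treg, in 88.6% and 92.5% and in 91.2% and 94.0% after thinning (92.7% and 95.7%, and 96.1% and 95.4%, without). In Cd8 cells with neither gene Icos was found in 42.4% and 31.7% and Tnfrsf18 in 31.6% and 30.0% after thinning (58.2% and 47.3%, and 51.0% and 49.0%, without). Cd28 varied least, with thinned shares between 47.9% and 65.1% over all classes and libraries. Cd27 was detected in 58.5% and 57.6% of Treg after thinning, against 17.2% and 25.1% of other Cd4 cells (74.7% and 73.6%, against 27.4% and 39.0%, without).

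**Figure D3:**
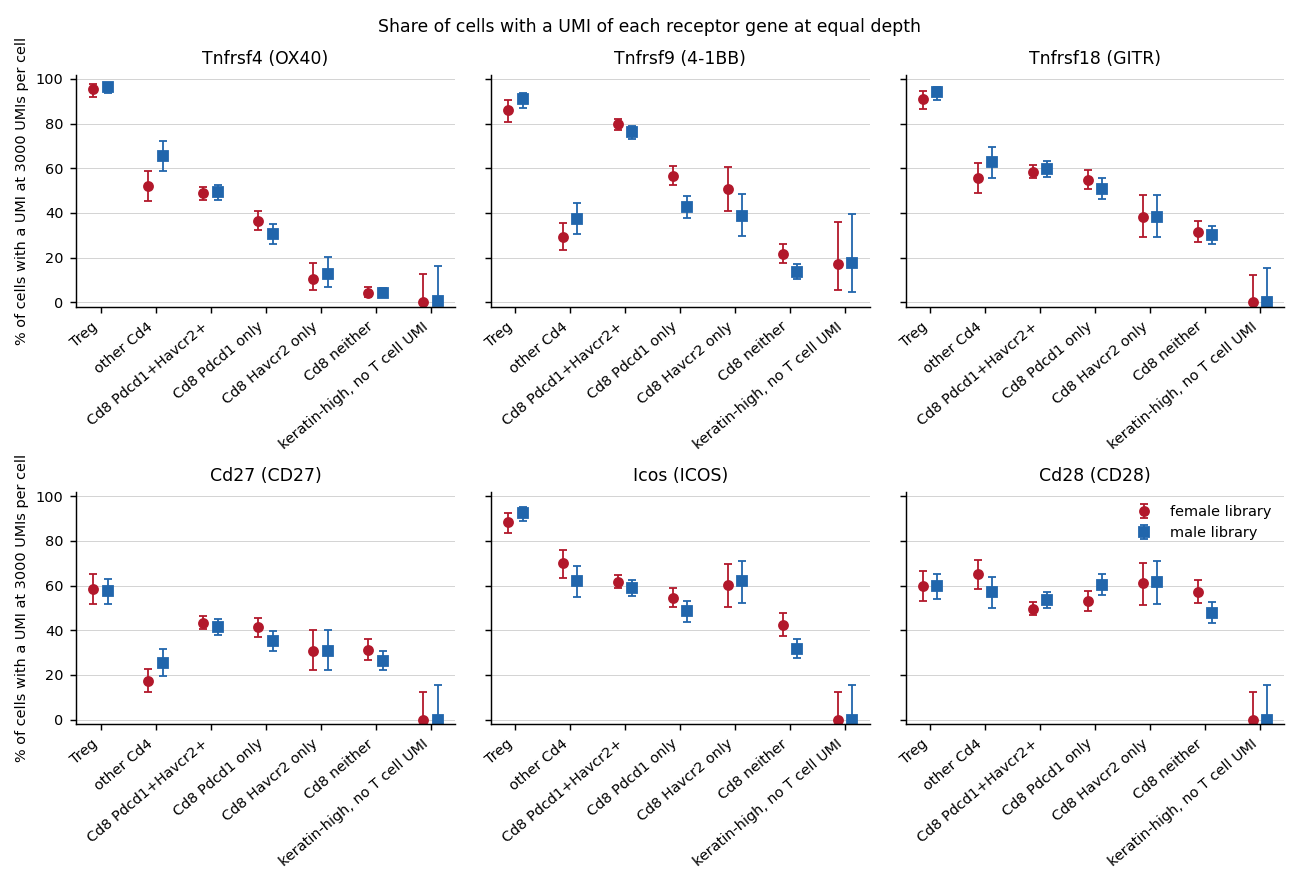
Percentage of cells with at least 1 UMI of each receptor after thinning to 3000 UMIs per cell, by class and library (red circles female, blue squares male, bars exact 95% binomial intervals), with keratin-high barcodes that hold no T cell UMI beside them. Tnfrsf4 covers the widest range, from 4.06% to 96.3%, and Cd28 the narrowest, from 47.9% to 65.1%, among the 6 T cell classes.

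Individual Treg held several receptors at the same time. In 1 thinning draw, the median Treg had 5 of the 6 receptors in each library, against 3 in other Cd4 and in Pdcd1+Havcr2+ Cd8 cells, and 2 (female) and 1 (male) in Cd8 cells with neither gene. All 6 were detected in 27.1% and 31.6% of Treg, 1.34% and 2.88% of other Cd4 cells and 4.37% and 4.18% of Pdcd1+Havcr2+ Cd8 cells. In Cd8 cells with neither gene all 6 were detected in 0 of 370 female and 0 of 471 male cells, and 14.1% and 19.7% held no receptor UMI.

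**Figure D4:**
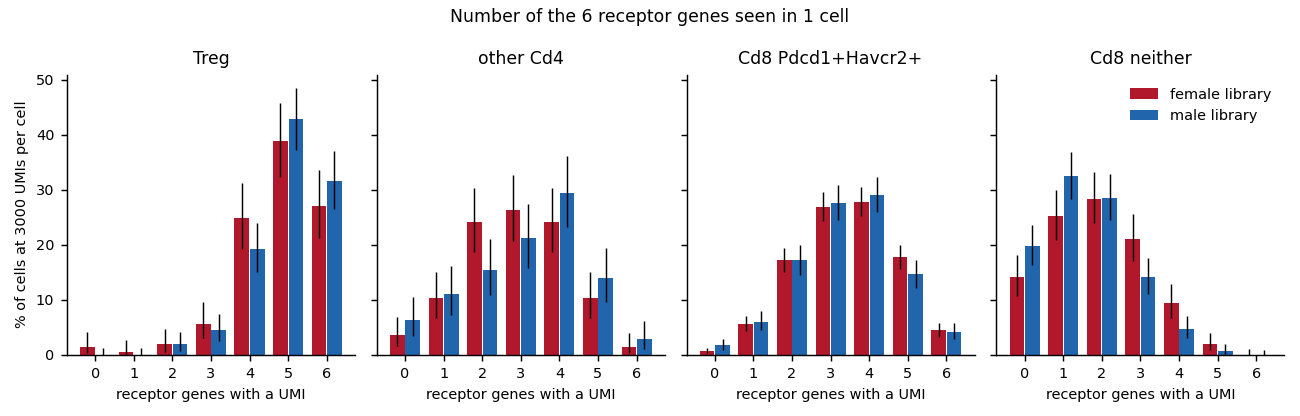
Distribution of the number of the 6 receptors detected per cell after thinning to 3000 UMIs, as a percentage of the cells of a class, for Treg, other Cd4 cells, Pdcd1+Havcr2+ Cd8 cells and Cd8 cells with neither gene (red bars female, blue bars male, black lines exact 95% binomial intervals). The median is 5 receptors in Treg, 3 in the next 2 classes, and 2 (female) and 1 (male) in Cd8 cells with neither gene.

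For 11 of 15 pairs of receptors, Treg with a UMI of one gene held the other more often than Treg without it, in both libraries. In other Cd4 cells this held for 9 pairs, and in Pdcd1+Havcr2+ Cd8 cells for 6. A second thinning draw gave 8, 10 and 10, so these counts depended on the draw. A few pairs with Tnfrsf4 are given from the first draw. OX40 and 4-1BB transcripts were found together in other Cd4 cells. Tnfrsf9 was detected in 55 of 117 female cells with a Tnfrsf4 UMI (47.0%), against 18 of 107 without (16.8%), and in 67 of 136 male cells with it (49.3%), against 10 of 72 without (13.9%). Tnfrsf18 was detected in 69.2% of female other Cd4 cells with a Tnfrsf4 UMI, against 43.0% without, and in 75.0% of male ones with it, against 36.1% without. In Pdcd1+Havcr2+ Cd8 cells the gaps had the same direction, with Tnfrsf9 at 86.5% with a Tnfrsf4 UMI, against 74.1% without, in the female library and 80.4%, against 70.5%, in the male one. Icos differed less in these Cd8 cells, at 62.5% with a Tnfrsf4 UMI, against 62.8% without, in the female library and 61.5%, against 58.2%, in the male one. These are cells of 1 library each, and no test was made.

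Treg with a Klrg1 UMI (134 female, 193 male), a receptor of differentiated effector Treg, had more Tnfrsf4 than those without (99 and 152). The levels were 3067 and 3179 CPM, against 1782 and 2382 CPM. This higher level was not particular to Tnfrsf4. Female log2 ratios of the receptors ran from 0.28 for Cd28 to 0.79 for Tnfrsf9, with Tnfrsf4 at 0.78. Male ones ran from 0.02 for Cd28 (counting interval -0.17 to 0.22) to 0.44 for Icos, with Tnfrsf4 at 0.42. Treg with a Mki67 or Top2a UMI, genes of dividing cells (56 female, 80 male), had less Cd27 than the rest, at 198 and 287 CPM, against 432 and 370 CPM. The lower level was not particular to Cd27. In the female library the log2 ratios ran from -0.53 for Tnfrsf18 to -1.13 for Cd27. In the male library they were smaller, from -0.03 for Tnfrsf4 (counting interval -0.10 to 0.05) to -0.37 for Cd27. The male interval of Cd28 spanned both signs as well (-0.14, -0.35 to 0.07). No test was made for either split.

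Whether the sexes differ could not be tested, since there was 1 library of each, and a receptor was counted as different where its ratio reached 1.5-fold. Over all Cd8 cells 0 of 6 receptors passed that size, where 1.94% of measured genes did. The largest ratio was that of Tnfrsf9, at 712 CPM in female and 568 CPM in male cells (log2 0.33, exact 95% interval 0.30 to 0.36), beside a median of 0.022 over all measured genes. The composition of the Cd8 cells differed as well: 51.5% of female and 41.7% of male Cd8 cells had both Pdcd1 and Havcr2, and 17.9% and 27.0% had neither.

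Within the Cd8 states, 0 of 6 receptors passed 1.5-fold in Pdcd1+Havcr2+ cells, where 1.71% of genes did, and 0 of 6 in Havcr2-only cells, where 17.5% did. In Pdcd1-only cells 1 passed, where 4.62% of genes did: Tnfrsf9 had 564 CPM in female and 363 CPM in male cells (log2 0.63, 0.55 to 0.72). In Cd8 cells with neither gene 2 passed, where 8.04% of genes did, Tnfrsf4 at 52.8 and 26.2 CPM (1.01, 0.63 to 1.40) and Tnfrsf9 at 167 and 97.5 CPM (0.78, 0.57 to 0.98). The female Tnfrsf4 value there drew 32.4% of its UMIs from 1 cell. Cd28 was lower in female than in male Pdcd1-only cells (-0.32, -0.42 to -0.21) and higher in female Cd8 cells with neither gene (0.31, 0.18 to 0.45).

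In Treg 0 of 6 receptors passed 1.5-fold, where 13.7% of measured genes did. The log2 ratios ran from -0.31 for Tnfrsf18 (1067 CPM in female and 1325 CPM in male Treg) to -0.04 for Cd27. Without barcodes carrying UMIs of other cell types, 228 female and 332 male cells, they ran from -0.13 for Tnfrsf18 to 0.16 for Cd27. In other Cd4 cells 1 of 6 passed, where 15.7% of genes did: Cd27 had 68.1 CPM in female and 110.3 CPM in male cells, on 108 and 152 UMIs (-0.70, -1.07 to -0.33). With classes called after thinning this ratio was -0.09.

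**Figure D5:**
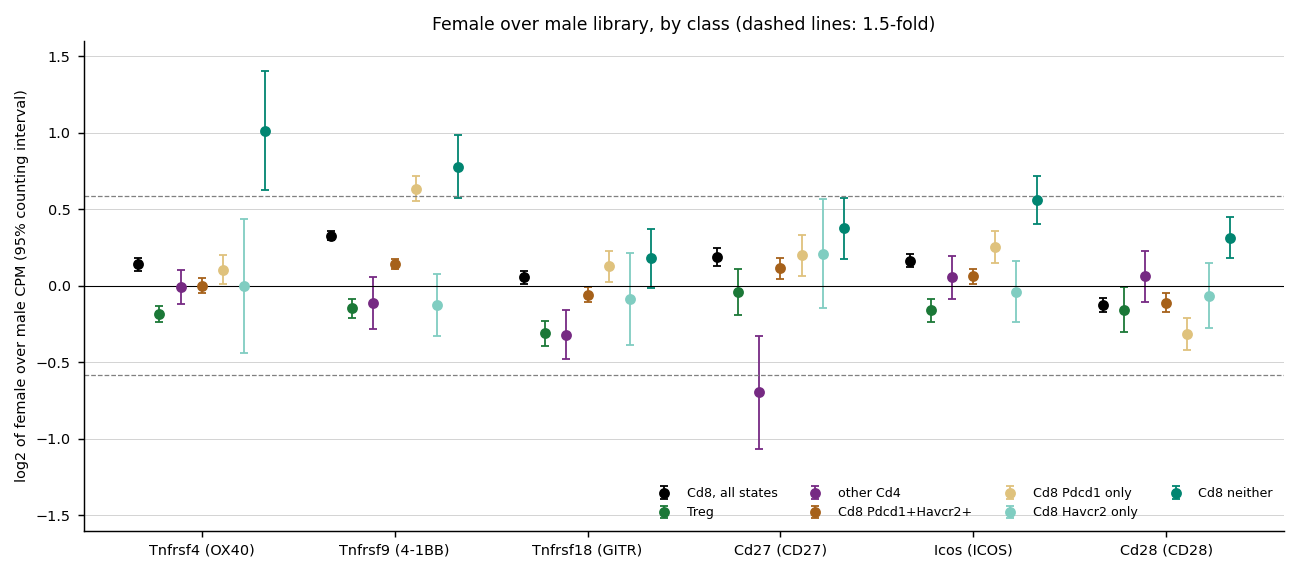
Log2 ratio of female over male CPM for each receptor in all Cd8 cells, the 4 Cd8 states, Treg and other Cd4 cells, with exact 95% intervals that cover counting error only. Dashed lines mark 1.5-fold in either direction. The points beyond them are Tnfrsf9 in Pdcd1-only cells, Tnfrsf4 and Tnfrsf9 in Cd8 cells with neither gene, and Cd27 in other Cd4 cells.

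Over the 12 sums, Tnfrsf4 and Tnfrsf18 followed each other most closely among the 15 pairs of receptors (Pearson r = 0.96 of log2(CPM + 1)), and Cd27 and Cd28 least (r = -0.30). Among 7055 other genes with at least 20 CPM in 1 sum, those most like Tnfrsf4 were Ccr8 (r = 0.98), Areg (0.98) and Hacd3 (0.97), and those most like Tnfrsf18 were Tigit (0.98), Cyfip1 (0.98) and Ikzf2 (0.97). Tnfrsf9 was followed by Pkm (0.99), Hsbp1 (0.99) and Crlf2 (0.98), and Icos by Lamc1, Slc15a3 and Il2rg (0.98 each). The nearest genes were less close for Cd27 (Amdhd2, 0.96, Gtf3c6, 0.95, and Ntng2, 0.94) and for Cd28 (Ube2d3, 0.95, Nfkbid, 0.92, and Uhrf1bp1l, 0.92). The 12 points share 2 libraries and differ in depth, so these values describe the sums only.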

How the data were processed

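Raw UMI counts by gene and barcode were deposited by the authors, who ran Cell Ranger 7.0.1, as the file headers state. The submitters' processing notes also name GRCm38 and Seurat 5 without saying what for. The rest was computed with Python 3.11.15, numpy 2.4.6, scipy 1.17.1, pandas 2.3.3, matplotlib 3.10.9 and R 4.3.3. Kept barcodes had 500 or more detected genes and a mitochondrial share of 10% or less, and no doublet caller was run. Barcodes with both Foxp3 and Cd8 UMIs were left out of all classes called at full depth. UMIs were summed per class and library, over 3468 female and 3519 male cells. edgeR 4.0.16 (TMM, filterByExpr, quasi-likelihood test) was fitted on 12 sums with a library term, which pairs the sums of a library, with 5 residual degrees of freedom and Benjamini-Hochberg adjustment over 10598 genes. Sexes, with 1 library each, were compared by CPM ratios with exact 95% intervals of Poisson counts, over genes with at least 20 UMIs and at least 10 CPM in 1 library. Shares have exact binomial (Clopper-Pearson) intervals, and a count of 0 allows up to 3 counts. Intervals and limits cover counting error only.

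On simulated counts for Treg over other Cd4 cells (10151 genes), edgeR called 62 of 96 genes changed by a log2 of 1, 94 of 100 changed by a log2 of 2 and 10 of 9955 unchanged ones. The simulation gave all genes the same dispersion, put no difference between the libraries other than depth and changed genes in Treg alone. Whether these rates hold for the real counts was not tested. Named were all 6 receptors, up to 4 called genes per list with the largest fold change and at least 50 UMIs, and the 3 genes most like each receptor. The text gives part of these. The receptors, lists and classes were chosen with earlier results of these data known. Of the gene identifiers, 99.6% matched GENCODE M21, which gave the coordinates. Alternatives were DESeq2 1.42.0, no filter on low counts, no library term, stricter classes, cells of 2000 to 20000 UMIs, a stricter cell filter, leaving out barcodes with UMIs of other cell types, class calls after thinning to 3000 UMIs and each library alone.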

Additional observations from a re-analysis of the deposited data

Results flagged for a closer look

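Several female over male ratios had opposite signs in different cell classes, in 1 library per sex, so these differences between classes were not tested. In Cd8 cells, against Treg, the log2 ratio was 0.14 against -0.18 for Tnfrsf4, 0.33 against -0.15 for Tnfrsf9, 0.054 against -0.31 for Tnfrsf18 and 0.16 against -0.16 for Icos. Without barcodes carrying UMIs of other cell types, the Treg ratios were 0.01 for Tnfrsf4, 0.04 for Tnfrsf9, -0.13 for Tnfrsf18 and 0.03 for Icos. In Cd8 cells, against other Cd4 cells, the log2 ratio was 0.054 against -0.32 for Tnfrsf18 and 0.19 against -0.70 for Cd27.

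In 2 class comparisons the female and male libraries went opposite ways, also untested. Cd28 in Pdcd1-only cells over Cd8 cells with neither gene had a log2 ratio of -0.41 (female) and 0.22 (male). Tnfrsf9 in Pdcd1-only over Havcr2-only cells had 0.48 (female) and -0.28 (male).

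Barcodes with at least 10 keratin UMIs and no T cell UMI, which belong to no T cell class, held Tnfrsf9 in 65.5% of 29 female and 54.5% of 22 male barcodes, at 41.6 and 54.7 CPM. The other receptors had at most 1 UMI per library in them, and a count of 0 allows a share of up to 10.3% for the female and 13.6% for the male barcodes.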

How the results depend on the processing

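Refitting the class comparisons under the alternatives gave 336 receptor values, of which 302 kept their direction and their side of the threshold, 17 lost the call, 12 gained one and 5 changed sign. The sign changes were Cd27 in Havcr2-only cells over Cd8 cells with neither gene (log2 0.0051 with DESeq2, 0.0059 with stricter classes, 0.035 in cells of 2000 to 20000 UMIs, 0.24 after thinning) and Tnfrsf9 in Pdcd1-only over Havcr2-only cells (-0.030 with stricter classes), and the cause was not tested. Counts of called receptors stayed within 1.5 times in 79 of 82 cases. The exceptions were Pdcd1-only cells over Cd8 cells with neither gene (5 with no filter on low counts, against 3), Pdcd1-only over Havcr2-only cells after thinning (edgeR called 0, against 4, with 2 at an unadjusted p below 0.05) and Cd27 in other Cd4 cells between the sexes after thinning (0, against 1). Taken from 1 library at a time, 48 of 84 values moved by more than the standard error. Of 144 female over male ratios, 43 moved beyond their counting interval. Pairing entered through the library term, and the fit without it changed the calls of Cd28 alone. Classes of 115 to 345 cells per library limit the precision for Havcr2-only, Treg and other Cd4 cells.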
